A study of Arabidopsis thaliana with 4 samples.

Results

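The 39 genes described here are the nuclear genes of the photosynthetic electron transport chain, listed by locus: 13 of photosystem I (PSA), 13 of photosystem II (PSB), 2 of cytochrome b6f (PETC and PETM), 2 for plastocyanin (PETE), 2 for leaf ferredoxin (FD), 2 for leaf ferredoxin-NADP reductase (FNR), 2 of the plastid ATP synthase and 3 for the PGR5/PGRL1 route of cyclic electron flow. The rule uses the loci alone and no measured value, and all 39 occur among the 37686 genes of the deposited table. In the chloroplast, photosystem II splits water and sends electrons through cytochrome b6f and plastocyanin to photosystem I, ferredoxin and FNR, while the protons moved on the way drive the ATP synthase. Some subunits are encoded in the plastid, and the nuclear ones are made in the cytosol and imported. In green leaves these nuclear genes are among the most strongly expressed, and light, sugars and developmental stage are known to act on them.

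RNA came from the cut end of first-pair rosette leaves detached from 12-day-old seedlings of Arabidopsis thaliana, wild type Col-0, taken with a piece of petiole and some neighbouring tissue. Donor plants grew on 1/2 MS medium plus sucrose in cycles of 16 h light and 8 h dark. One group was taken before culture (time 0) and the other after 2 days on sucrose-containing B5 medium in the dark, both steps at 22 °C, with 2 libraries in each group. Time since cutting, darkness and medium differ at once between the groups and cannot be told apart, and the labels do not say whether libraries of a group are separate plants or pools. Levels are in TPM, transcripts per 1000000 after scaling by transcript length, so that genes can be compared within a library. These values carry no sequencing depth. A log2 difference is the limma estimate on log2(TPM + 1), 2 days minus time 0, and a fold is a ratio of mean TPM.

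After 2 days all 39 genes had fallen (limma, adjusted p between 4.9e-06 and 0.0345), whereas 29.5% of the 19078 genes tested were called lower, 39.2% higher and 68.8% in either direction. The fall was at least 2-fold in 35 of the 39, against 10.4% of all genes tested, and both 2-day libraries lay below both time 0 libraries in all 39, against 37.7% of all genes (86.0% had no overlap in either direction). Their median log2 difference was -2.47, beside a median of 0.09 over all genes tested. Higher genes were 57.0% of all calls here and 47.0% after quantile normalization, which lowered that overall median to -0.06 and left all 39 genes called lower. Summed over the 39 genes, the level was 69612 and 68357 TPM at time 0 and 13967 and 12615 TPM at 2 days. As a share of all transcripts this was 6.96 and 6.84% at time 0 and 1.4 and 1.26% at 2 days. An exact two-sided permutation test over 2 against 2 libraries cannot go below p = 0.333, which is the value it gave for this share. In RNA from whole tissue, fewer cells of a type and less RNA per cell cannot be told apart.

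**Figure D1:**
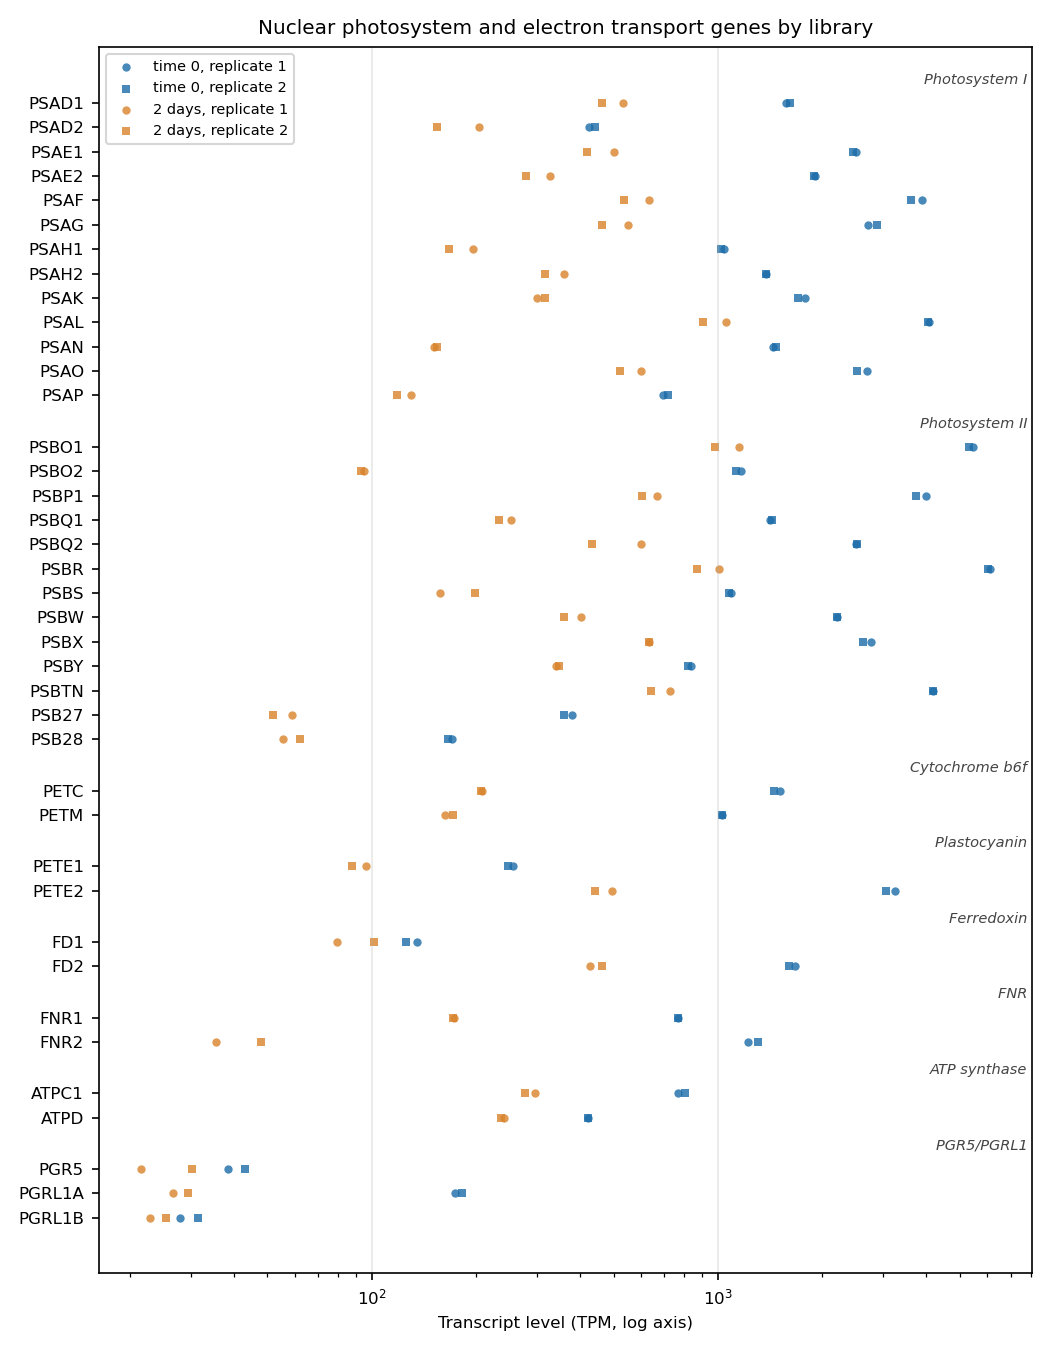
Transcript level in TPM on a log axis of each of the 39 genes in each of the 4 libraries (blue, time 0; orange, 2 days; circles and squares, replicates 1 and 2), in rows grouped by complex. For every gene both orange points lie to the left of both blue points, with the widest gap in FNR2 and the narrowest in PGRL1B, FD1 and PGR5.

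Sizes were similar across most of the list: 25 of the 39 genes fell between 4-fold and 8-fold, 3 fell more than 8-fold and 4 fell less than 2-fold. Ordered by log2 difference, FNR2, PSBO2 and PSAN stood apart at the steep end, where the limma 95% intervals of neighbours did not overlap (FNR2 up to -4.53, PSBO2 from -3.73 to -3.47, PSAN from -3.37 to -3.11, PETC from -2.96). At the other end ATPD, PGR5, FD1 and PGRL1B followed PSBY across another such gap (-1.13 against -0.94). That gap does not set them apart from all other genes. The wider interval of PSAD2 (-1.63 to -0.93), next to PSBY in the order, overlapped those of ATPD and PGR5. Between PETC and PSBY each gene's interval overlapped that of the next, so the order of neighbours within that stretch is not resolved. Genes further apart in it can still differ, as PETC (-2.96 to -2.69) and PSAD1 (-1.89 to -1.47) had separate intervals.

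**Figure D2:**
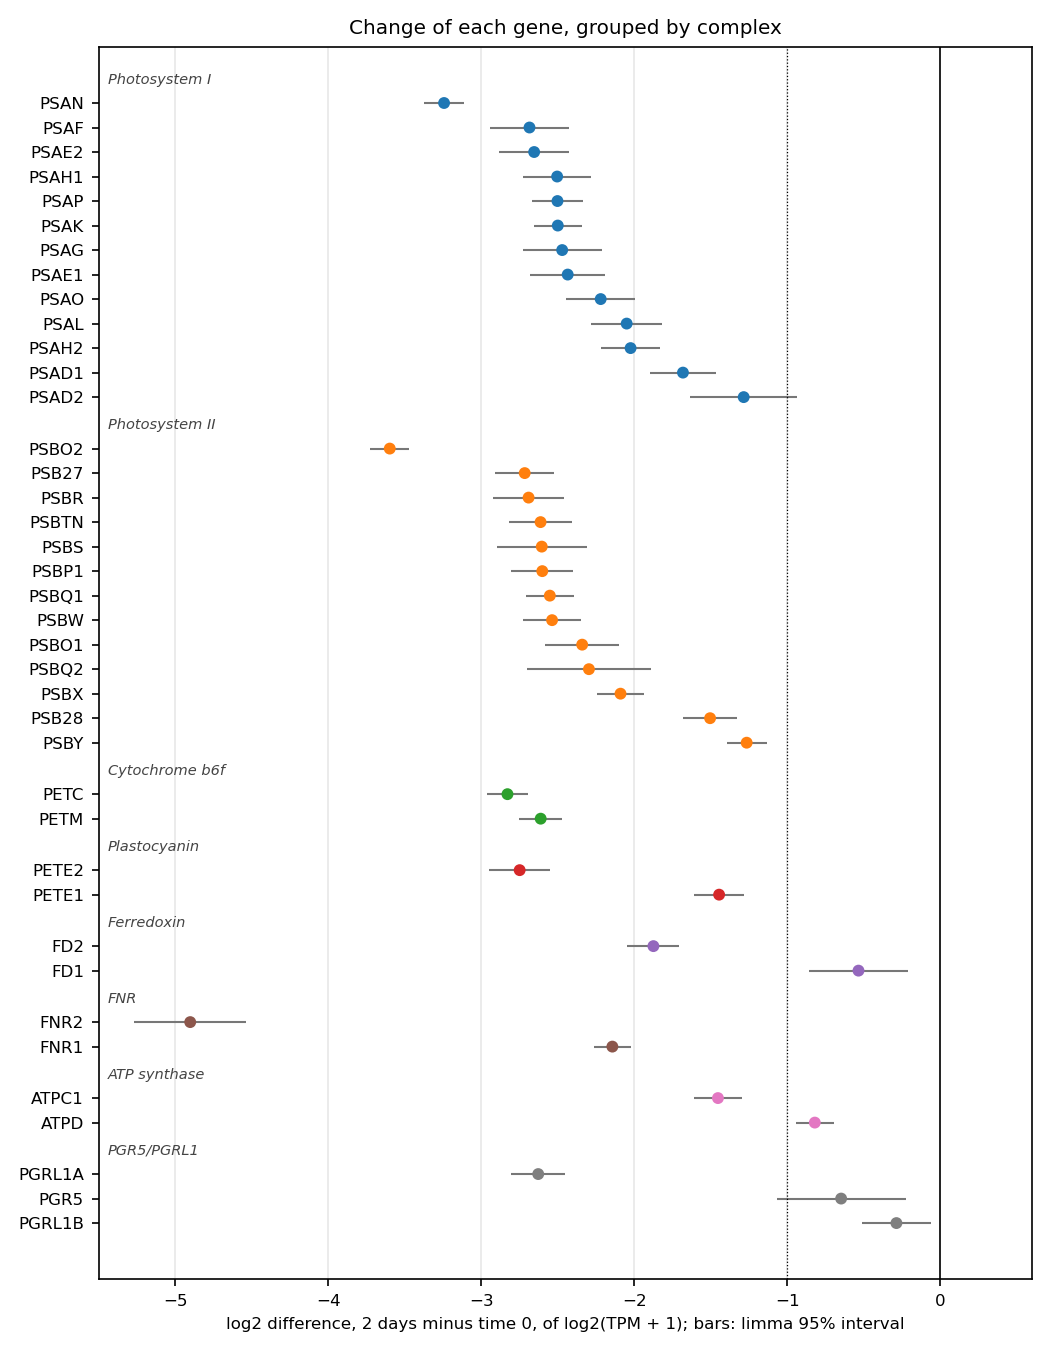
Log2 difference of log2(TPM + 1), 2 days minus time 0, for each of the 39 genes with the limma 95% interval (bars), grouped by complex and ordered within it; the dotted line marks a 2-fold fall. Most photosystem and both cytochrome b6f genes lie between -3 and -2, the ATP synthase pair lies at -1.45 and -0.82, and the copies of FNR, ferredoxin, plastocyanin and PGRL1 lie far apart.

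Of the 39 genes, FD1 alone shares 50-base windows with another gene (3.6%, with the gene AT1G10950). Windows that overlap a transcript on the opposite strand make up over 5% in 5 genes, where the level is uncertain if strand was not used in counting. They were 58.8% in PSAG, whose opposite-strand partner AT1G55673 was itself listed at 4164 and 3627 TPM at time 0 and 851 and 669.6 TPM at 2 days. They were 29.1% in PSAE1, with AT4G28755 at 1835 and 1785 TPM at time 0 and 331 and 353 TPM at 2 days. In PSAH1 (49.2%), PSAH2 (19.1%) and FNR1 (9.44%) the partner stood at or below 20.9 TPM in every library. Library pairs were close, with log2 correlations of 0.992 at time 0 and 0.984 at 2 days over all genes tested, and 26 of the 39 genes were lower in 2-day replicate 2 than in replicate 1.

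Photosystem I passes electrons from plastocyanin on the inner side of the thylakoid to ferredoxin on the stromal side. All 13 of its genes fell, by 2.42 to 9.52-fold with a median log2 difference of -2.47, and their summed level was 26115 and 25739 TPM at time 0 and 5537 and 4813 TPM at 2 days. The stromal subunits PSAD and PSAE, which form the docking site of ferredoxin, are each encoded by 2 genes. PSAD1 (AT4G02770) stood at 1576 and 1617 TPM at time 0 and 533 and 463 TPM at 2 days. PSAD2 (AT1G03130) stood at 425 and 442 TPM at time 0 and 204 and 154 TPM at 2 days. These were the smallest falls of photosystem I, 3.2-fold and 2.42-fold, and the interval of PSAD2 (95% interval -1.63 to -0.93) included a 2-fold change. Levels of PSAE1 (AT4G28750) were 2499.9 and 2459.8 TPM at time 0 and 500.2 and 419 TPM at 2 days, and the sister copy PSAE2 (AT2G20260) followed the same course with 1907 and 1899.7 TPM at time 0 and 327 and 278 TPM at 2 days. Both PSAE copies thus fell more than both PSAD copies (5.39-fold and 6.29-fold), and neither PSAE interval (95% interval -2.68 to -2.19 for PSAE1, 95% interval -2.88 to -2.42 for PSAE2) overlapped those of PSAD1 or PSAD2.

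On the opposite face, PSAF and PSAN serve in the docking of plastocyanin. The level of PSAN (AT5G64040) was 1439.8 and 1467 TPM at time 0 and 151 and 154 TPM at 2 days, a 9.52-fold fall and the largest of photosystem I (log2 difference -3.24, 95% interval -3.37 to -3.11, limma adjusted p = 5.57e-06). That of PSAF (AT1G31330) was 3885 and 3604 TPM at time 0 and 632 and 535 TPM at 2 days, 6.42-fold lower. The libraries of each group were nearly alike for PSAN, and its interval lay wholly below that of PSAF. PSAG and PSAK sit at the flanks of the complex next to the light-harvesting proteins. PSAG (AT1G55670) had 2719 and 2880.4 TPM at time 0 and 551 and 461 TPM at 2 days. PSAK (AT1G30380) had 1789.6 and 1708 TPM at time 0 and 300.0 and 317 TPM at 2 days. Their falls of 5.53-fold and 5.67-fold had overlapping intervals.

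PSAH, PSAL and PSAO lie on the side of photosystem I where mobile light-harvesting complex II can attach. PSAL (AT4G12800) was the most abundant photosystem I transcript, at 4067 and 4031 TPM at time 0 and 1054 and 907 TPM at 2 days. PSAO (AT1G08380) had 2698 and 2513 TPM at time 0 and 598 and 521 TPM at 2 days. Both fell by a like factor, 4.13-fold and 4.65-fold. PSAH1 (AT3G16140) had 1042 and 1024 TPM at time 0 and 197 and 167 TPM at 2 days. Its sister copy PSAH2 (AT1G52230) had 1376 and 1376 TPM at time 0 and 359.7 and 317 TPM at 2 days. PSAH1 fell 5.68-fold and PSAH2 4.07-fold, so that PSAL, PSAO and PSAH2 had the smallest falls of photosystem I after PSAD. The 13th gene, called PSAP (AT2G46820) for its early assignment to photosystem I, is listed in the reference as PSI-P. This gene is also known as CURT1B, for a protein that bends the thylakoid membrane at the margins of grana. It had 692 and 719 TPM at time 0 and 129.6 and 118 TPM at 2 days and fell 5.69-fold.

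Photosystem II splits water and starts the electron chain. Its 13 genes fell by 2.41 to 12.2-fold, with a median log2 difference of -2.55, and their summed level was 32251 and 31552 TPM at time 0 and 6147 and 5509 TPM at 2 days. Of this, the 6 genes of the extrinsic proteins at the oxygen-evolving centre made up 20616 and 20136 TPM at time 0 and 3775 and 3215 TPM at 2 days. PSBO1 (AT5G66570) and PSBO2 (AT3G50820) encode the protein that stabilises the manganese cluster. PSBO1 went from 5466 and 5305 TPM to 1149 and 983 TPM, 5.05-fold, and was the most abundant of the 39 at 2 days. PSBO2 went from 1165 and 1130.2 TPM to 94.9 and 92.9 TPM, 12.2-fold, the second largest fall of the 39 (log2 difference -3.60, 95% interval -3.73 to -3.47, limma adjusted p = 4.9e-06).

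PSBP and PSBQ bind over PSBO and help to hold calcium and chloride at the centre, and PSBR aids their attachment. PSBP1 (AT1G06680) had 3978 and 3729 TPM at time 0 and 668 and 602 TPM at 2 days. PSBQ1 (AT4G21280), listed as PSBQA in the reference, had 1417 and 1436 TPM at time 0 and 252 and 234 TPM at 2 days. PSBQ2 (AT4G05180) had 2504 and 2513 TPM at time 0 and 601 and 433 TPM at 2 days. The larger PSBQ copy at time 0 stayed the larger at 2 days. PSBR (AT1G79040) led all 39 genes at time 0, with 6086 and 6022 TPM at time 0 and 1009.6 and 870.3 TPM at 2 days. These 4 falls lay between 4.85-fold and 6.44-fold, with overlapping intervals, and among these 4 the 2-day libraries differed most for PSBQ2.

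PSBS (AT1G44575), the sensor of lumen acidity that switches on the dissipation of excess light as heat, had 1088 and 1076 TPM at time 0 and 158 and 199 TPM at 2 days, a 6.07-fold fall. Among the 4 small subunits PSBW, PSBTN, PSBX and PSBY, the smallest fall was that of PSBY. PSBW (AT2G30570) had 2204 and 2207 TPM at time 0 and 401 and 358 TPM at 2 days, 5.8-fold lower. PSBTN (AT3G21055) had 4191 and 4167 TPM at time 0 and 726 and 642 TPM at 2 days, 6.11-fold lower. PSBX (AT2G06520) had 2768 and 2622 TPM at time 0 and 632 and 633 TPM at 2 days, 4.26-fold lower, with nearly equal 2-day libraries. PSBY (AT1G67740) had 836 and 819.5 TPM at time 0 and 340.1 and 348 TPM at 2 days, and its 2.41-fold fall was the smallest of photosystem II, with an interval (95% interval -1.40 to -1.13) apart from those of PSBW, PSBTN and PSBX. Among factors of assembly and repair, PSB27 (AT1G03600) had 378 and 360.0 TPM at time 0 and 58.9 and 51.9 TPM at 2 days, 6.66-fold lower. PSB28 (AT4G28660) had 170.3 and 166 TPM at time 0 and 55.5 and 61.9 TPM at 2 days, 2.86-fold lower. The intervals of PSB27 and PSB28 did not overlap (-2.91 to -2.52 and -1.68 to -1.33).

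The cytochrome b6f complex links the photosystems and pumps protons. Its nuclear genes in the list encode the Rieske iron-sulphur protein PETC and the small subunit PETM. PETC (AT4G03280) had 1510.5 and 1452 TPM at time 0 and 208 and 207 TPM at 2 days. PETM (AT2G26500) had 1024 and 1029.6 TPM at time 0 and 163 and 172 TPM at 2 days. Both replicate pairs were tight, and the falls of 7.13-fold and 6.14-fold (log2 differences -2.83 and -2.61) had overlapping intervals. Plastocyanin carries electrons onward to photosystem I. The main copy PETE2 (AT1G20340), DRT112 in the reference, had 3235 and 3061 TPM at time 0 and 494 and 443 TPM at 2 days. The minor copy PETE1 (AT1G76100) had 255 and 248 TPM at time 0 and 96.2 and 87.6 TPM at 2 days. PETE2 fell 6.72-fold and PETE1 2.74-fold, with intervals that did not overlap (95% interval -2.95 to -2.55 against 95% interval -1.61 to -1.28).

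The plastid ATP synthase uses the proton gradient. Its 2 nuclear genes in the list were among those that fell least. This does not hold for the whole complex, since ATPG, a further nuclear subunit outside the list described below, fell 6.64-fold. ATPC1 (AT4G04640), the gamma subunit of the rotor, had 767 and 803 TPM at time 0 and 296 and 276 TPM at 2 days. ATPD (AT4G09650), the delta subunit of the stator, had 422 and 421 TPM at time 0 and 241 and 236 TPM at 2 days. The falls were 2.74-fold and 1.77-fold (log2 differences -1.45 and -0.82, limma adjusted p = 3.41e-05 and 9.06e-05), with no overlap between the intervals. Of the 39-gene total, the pair made up 1.71 and 1.79% at time 0 and 3.84 and 4.07% at 2 days, so their share was higher at 2 days in both libraries.

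PGR5 and PGRL1 return electrons from ferredoxin to the plastoquinone pool. PGRL1A (AT4G22890) had 174 and 182 TPM at time 0 and 26.6 and 29.5 TPM at 2 days and fell 6.36-fold (log2 difference -2.63, limma adjusted p = 1.14e-05). Its sister PGRL1B (AT4G11960) had 28 and 31.4 TPM at time 0 and 22.9 and 25.4 TPM at 2 days, the smallest change of the 39, 1.23-fold (log2 difference -0.29, 95% interval -0.51 to -0.06, limma adjusted p = 0.0345). PGR5 (AT2G05620) had 38.4 and 42.9 TPM at time 0 and 21.6 and 30.2 TPM at 2 days, 1.57-fold lower (limma adjusted p = 0.0181). The gap between the groups was narrow for PGR5 and PGRL1B, although the libraries did not overlap. PGRL1B did not pass when any 1 of the 4 libraries was left out (adjusted p = 0.0553 and 0.202 without time 0 replicate 1 or 2, 0.148 and 0.0618 without 2-day replicate 1 or 2), without a trend in limma (0.0545) or without a filter (0.161), within 0.00921 to 0.202 over all alternatives. PGR5 was not called without time 0 replicate 1 or 2 (adjusted p = 0.0504 and 0.0955) or without a filter (0.164), within 0.0032 to 0.164.

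Ferredoxin receives electrons from photosystem I, and FNR hands them to NADP. The main leaf ferredoxin FD2 (AT1G60950), FED A in the reference, had 1666 and 1602 TPM at time 0 and 427 and 464 TPM at 2 days. The minor leaf copy FD1 (AT1G10960) had 136 and 126 TPM at time 0 and 79.4 and 102 TPM at 2 days. FD2 fell 3.67-fold (log2 difference -1.87, limma adjusted p = 2.16e-05) and FD1 1.44-fold (-0.53, limma adjusted p = 0.0136). FD1 did not pass when time 0 replicate 1 was left out (limma adjusted p = 0.0783) and without a filter (0.137), within 0.00683 to 0.137 over all alternatives. FNR1 (AT5G66190) had 765 and 764 TPM at time 0 and 173 and 172 TPM at 2 days, a 4.43-fold fall. FNR2 (AT1G20020), the more abundant leaf FNR at time 0, had 1225 and 1302 TPM at time 0 and 35.5 and 48 TPM at 2 days. This 30.3-fold fall was the largest of the 39 genes (log2 difference -4.90, 95% interval -5.27 to -4.53, limma adjusted p = 1.36e-05), and it moved FNR2 from rank 22 to rank 36 among the 39 by level.

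For 9 subunits or carriers the protein is encoded by 2 copies within the list, and copies could be told apart, because no 50-base window of any copy's transcripts occurs in its sister's. The balance between copies moved most for FNR: FNR1 transcripts as a share of the pair were 38.5 and 37% at time 0 and 83 and 78.2% at 2 days, so the copy in the minority at time 0 was the major copy after culture. For PGRL1A the share of its pair was 86.2 and 85.3% at time 0 and 53.7 and 53.7% at 2 days, a large majority that became close to an even split. Of the FD1 and FD2 total, FD1 held 7.52 and 7.28% at time 0 and 15.7 and 18% at 2 days. Of plastocyanin, PETE1 held 7.31 and 7.5% at time 0 and 16.3 and 16.5% at 2 days. In each of those carriers the minor copy gained share. PSBO1, already the major copy, gained share as well and held 82.4 and 82.4% at time 0 and 92.4 and 91.4% at 2 days.

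The log2 ratio of FNR1 to FNR2 was -0.68 and -0.77 at time 0 and 2.25 and 1.82 at 2 days. That of PGRL1A to PGRL1B was 2.60 and 2.50 at time 0 and 0.21 and 0.21 at 2 days. For the 5 pairs with the largest shifts, and for PSAH1 and PSAH2, the limma intervals of the copies' changes did not overlap. Shifts were smaller for the other photosystem pairs: 0.48 on the log2 scale for PSAH, 0.40 for PSAD, 0.26 for PSBQ and 0.22 for PSAE, where the copies of PSAD, PSBQ and PSAE had overlapping intervals. The PSBQ shift depends on the 2-day library used, since the log2 ratio of PSBQ1 to PSBQ2 changed by -0.07 without 2-day replicate 1 and by -0.44 without replicate 2. The ratio did not overlap between the groups in any of the 9 pairs. Lack of overlap was common here, as 86.0% of all single genes tested had none in either direction. With 2 against 2 libraries the exact two-sided permutation test gave p = 0.333 for each (0.333 after Benjamini-Hochberg adjustment over the 9), the smallest it allows.

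**Figure D3:**
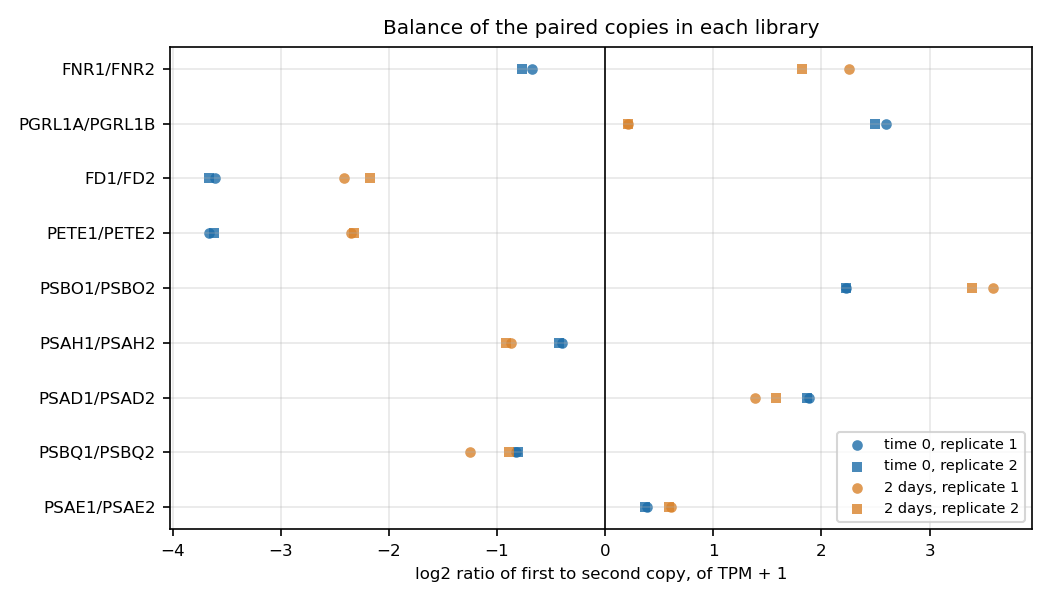
Log2 ratio of the first-named to the second-named copy (of TPM + 1) in each of the 4 libraries for the 9 pairs, ordered by the size of the shift (blue, time 0; orange, 2 days; circles and squares, replicates 1 and 2). The FNR1/FNR2 ratio crosses 0 from below, PGRL1A/PGRL1B moves to near 0, and the lowest 4 pairs shift by less than 0.5.

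By complex, median log2 differences ran from -3.52 for FNR and -2.72 for cytochrome b6f through -2.55 for photosystem II, -2.47 for photosystem I and -2.10 for plastocyanin to -1.20 for ferredoxin, -1.14 for ATP synthase and -0.65 for PGR5/PGRL1. Without 2-day replicate 1 the PGR5/PGRL1 median, which is the value of PGR5, was -0.41, and the order of ferredoxin and ATP synthase turned (-1.09 and -1.17). Medians over 2 or 3 genes mostly average unlike copies. Summed levels put PGR5/PGRL1 at 3.18-fold, ferredoxin at 3.29-fold, ATP synthase at 2.3-fold, plastocyanin at 6.07-fold and FNR at 9.47-fold lower. By sums plastocyanin fell more than photosystem II (5.47-fold) and photosystem I (5.01-fold), the reverse of their order by medians. The ATP synthase values cover ATPC1 and ATPD alone and leave out ATPG, which fell 6.64-fold. As parts of the 39-gene total, photosystem I was 37.5 and 37.7% at time 0 and 39.6 and 38.2% at 2 days, and photosystem II 46.3 and 46.2% at time 0 and 44 and 43.7% at 2 days. The photosystem I share was thus slightly higher and that of photosystem II slightly lower in both 2-day libraries, although the 2-day photosystem I shares differed from each other by more than the gap between the groups, and these shifts are small beside the fall of both. FNR took 2.86 and 3.02% at time 0 and 1.49 and 1.74% at 2 days and ferredoxin 2.59 and 2.53% at time 0 and 3.63 and 4.48% at 2 days. None of the 8 shares overlapped between the groups, and each had the smallest p the exact two-sided permutation test allows, 0.333. Groups also did not overlap in 86.0% of all single genes tested, so this alone does not set the shares apart.

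The order of levels was largely kept. Across the 39 genes, log2 TPM at time 0 and at 2 days had a Pearson r of 0.88 and a Spearman rho of 0.91, a description over genes that share the same libraries and are not independent. PSBR, PSBO1, PSBTN, PSAL and PSBP1 held the top 5 ranks at time 0 and PSBO1, PSAL, PSBR, PSBTN and PSBP1 at 2 days. Genes with higher levels at time 0 tended to have larger falls (Spearman rho -0.41 between level and log2 difference, which share the time 0 values). The number of introns had a rho of -0.38 with the log2 difference and coding length -0.02. Of the 39 genes, 13 have no intron in the TAIR10.1 annotation, and coding lengths run from 351 to 1122 bases. The genes are spread over all 5 chromosomes, with 16 on chromosome 1 and 11 on chromosome 4. Among the 100 most abundant genes of the table, 24 were members at time 0 and 2 at 2 days.

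Ferredoxin and FNR also occur in forms that serve non-photosynthetic plastids, such as those of roots, where the root-type FNR runs in reverse and supplies reduced ferredoxin for nitrite and sulphite assimilation. All 3 genes of this kind rose. FD3 (AT2G27510) had 47.3 and 44.3 TPM at time 0 and 194 and 204 TPM at 2 days, 4.35-fold higher. RFNR1 (AT4G05390) had 28.6 and 30.3 TPM at time 0 and 191 and 190.3 TPM at 2 days, 6.48-fold higher. RFNR2 (AT1G30510) had 35.5 and 36.9 TPM at time 0 and 433 and 449 TPM at 2 days, 12.2-fold higher (limma adjusted p between 5.24e-06 and 1.31e-05 for the 3). The leaf and root types thus moved in opposite directions in every library. Of the TPM of all 4 FNR genes, RFNR1 and RFNR2 held 3.12 and 3.15% at time 0 and 74.9 and 74.4% at 2 days. Of the FD1, FD2 and FD3 total, FD3 held 2.56 and 2.5% at time 0 and 27.7 and 26.5% at 2 days. The log2 ratio of the types changed by 6.51 for FNR and 3.84 for ferredoxin, each with the smallest exact two-sided permutation p, 0.333.

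**Figure D4:**
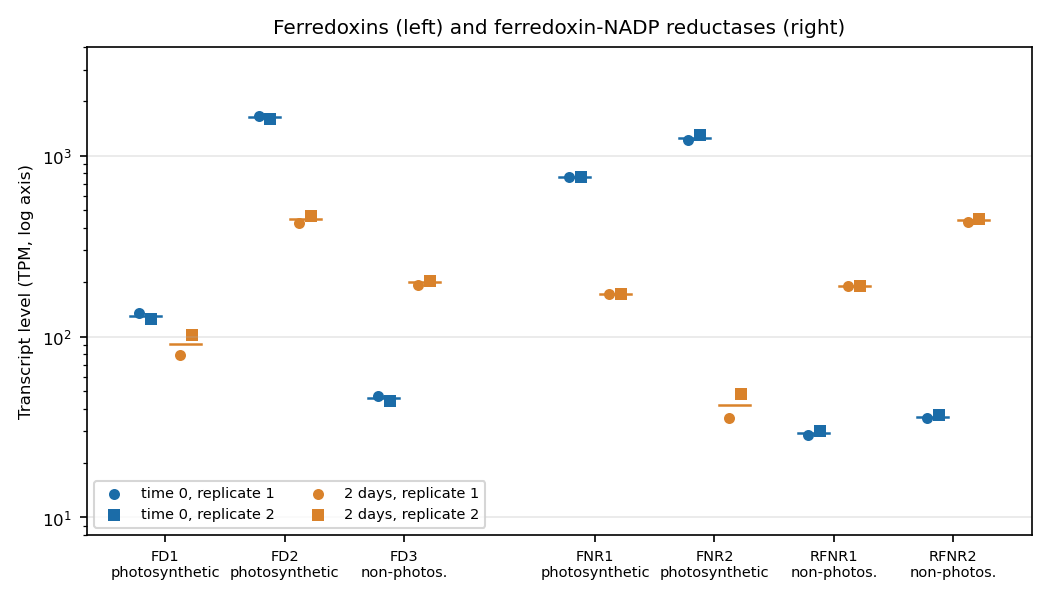
Transcript level in TPM on a log axis of the ferredoxin genes (left) and FNR genes (right) in each library (blue, time 0; orange, 2 days; circles and squares, replicates 1 and 2; lines, group means). The photosynthetic genes fall, FD1 least and FNR2 most, and FD3, RFNR1 and RFNR2 rise, so that RFNR2 is the highest FNR gene at 2 days.

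Related genes were read from the same fit across all genes, of which 29.5% were called lower and 39.2% higher. The NDH complex is a second route of cyclic electron flow, and 11 of its 11 listed nuclear genes fell (median log2 difference -2.81). Its largest log2 differences were those of NDHL (AT1G70760), with 231 and 233 TPM at time 0 and 5.78 and 4.18 TPM at 2 days, and NDHN (AT5G58260), with 49 and 48 TPM at time 0 and 3.45 and 3.58 TPM at 2 days. An opposite-strand gene covers 71.9% of the NDHL windows and 17.7% of those of NDHN, so both are uncertain. As a ratio of mean TPM, NDHM (AT4G37925) fell 14.6-fold and NDHN 13.8-fold, so the order of these genes depends on the scale. Assembly and repair factors fell in 17 of 17 (median -1.66). They included HCF136 (AT5G23120), an assembly factor of the photosystem II core, with 340.2 and 342 TPM at time 0 and 41.6 and 38.7 TPM at 2 days, and LQY1 (AT1G75690), of photosystem II repair, with 122 and 121 TPM at time 0 and 19.4 and 23.8 TPM at 2 days.

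Of 14 other nuclear thylakoid genes, 11 fell, 2 rose and 1 did not pass (median -1.66). The ferredoxin-like FDC1 (AT4G14890) had 157 and 153 TPM at time 0 and 6.7 and 8.61 TPM at 2 days, and is uncertain because an opposite-strand gene covers all of its windows. PPL1 (AT3G55330), a PSBP-like protein of photosystem II repair, had 139 and 163 TPM at time 0 and 16 and 16 TPM at 2 days. CURT1D (AT4G38100), a relative of CURT1B, rose from 24.5 and 28.4 TPM to 37.3 and 36.3 TPM (limma adjusted p = 0.00564). That call was lost without 2-day replicate 1 and without a filter, within 0.00413 to 0.0624 over all alternatives. PTOX (AT4G22260), the plastid terminal oxidase, listed as IM in the reference, had 26 and 26.1 TPM at time 0 and 32.8 and 29.7 TPM at 2 days (limma adjusted p = 0.0256). That call was lost after quantile normalization, after rescaling, without a filter and without time 0 replicate 1 or 2, within 0.0163 to 0.156.

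Light-harvesting antenna genes fell in 15 of 18, with 2 higher and 1 not past the threshold (median -2.18). Their summed level was 79478 and 76543 TPM at time 0 and 17260.0 and 14428 TPM at 2 days, somewhat above the 39-gene sum in each library. LHCB1.4 (AT2G34430) and LHCB1.2 (AT1G29910) fell most, with log2 differences of -5.83 and -4.12. An opposite-strand gene covers 13.6% of the LHCB1.4 windows and 100% of those of LHCB1.5 (AT2G34420), so both are uncertain. LHCB2.1 (AT2G05100) had 174 and 177 TPM at time 0 and 339 and 325 TPM at 2 days, and LHCB2.2 (AT2G05070) had 323 and 318 TPM at time 0 and 548 and 416 TPM at 2 days, higher in both 2-day libraries. These copies share 10.6% to 28.2% of their windows with others, and the LHCB2.2 call was lost without a filter, after quantile normalization and without time 0 replicate 1 or 2 (limma adjusted p over all alternatives 0.00209 to 0.14).

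The listed nuclear genes of mitochondrial electron transport rose in 14 of 14 (median log2 difference 1.39), and their summed level was 1761 and 1716 TPM at time 0 and 3996 and 4467 TPM at 2 days. CYTC-2 (AT4G10040), a cytochrome c, had 13.2 and 13.7 TPM at time 0 and 92.7 and 97.5 TPM at 2 days, and SDH1-1 (AT5G66760), a subunit of succinate dehydrogenase, 47 and 45.4 TPM at time 0 and 173 and 176 TPM at 2 days. The listed nuclear genes of the mitochondrial chain and those of the photosynthetic chain thus moved in opposite directions in all listed members in this fit. Of 5 reference genes used for normalization in Arabidopsis, 2 were slightly higher and 3 did not pass (median 0.11). That count is near the 39.2% called higher over all genes tested. PP2AA3 (AT1G13320) and TIP41L (AT4G34270) had log2 differences of 0.20 and 0.28, the former not called in 8 of 13 alternatives (limma adjusted p over all alternatives 0.0303 to 0.287) and the latter not without time 0 replicate 1 or 2 (0.00545 to 0.0632).

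**Figure D5:**
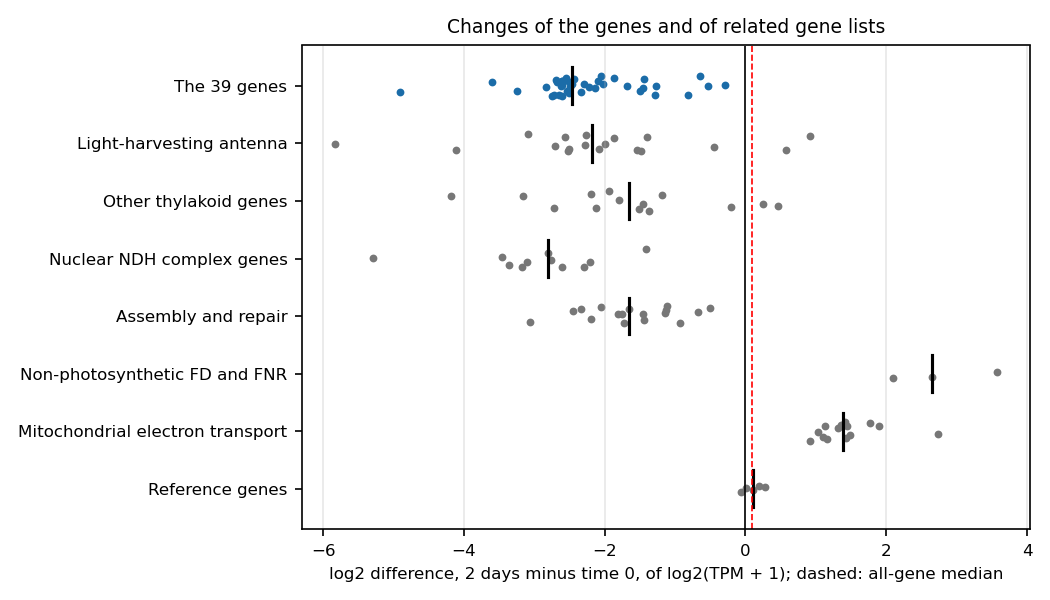
Log2 difference of log2(TPM + 1), 2 days minus time 0, of each tested gene (points) in the 39 genes and the related lists, with each list's median (black bars) and the median of all genes tested (red dashes, 0.09). The 39 genes lie wholly below 0, as do the NDH and the assembly and repair genes, whereas the non-photosynthetic ferredoxin and FNR genes and the mitochondrial genes lie wholly above 0.

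Plastid-encoded transcripts were scarce in these libraries. The 32 plastid identifiers listed for subunits of the same complexes are not paired with gene names in the table or the reference, so they are described as a set. They summed to 131 and 119.5 TPM at time 0 and 65.8 and 31.8 TPM at 2 days, with 10 of them listed at 0 in every library. Of the 14 tested, 11 were lower, 0 higher and 3 not past the threshold (median -0.99), against 29.5% lower over all genes tested. Some of these 11 had a 2-day mean below the limit of 1 TPM and were tested only through their time 0 level. Such identifiers could hardly be called anything but lower, so the count is not read as a result. Many of the levels were also close to the 1 TPM added before taking logs. Whether the libraries were made from polyadenylated RNA is not given in the sources used here, and the balance of plastid and nuclear subunits cannot be read from them.

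Markers of the cell types that the cut piece can hold moved unequally. The phloem count below, 1 of 3, is near the share called lower over all genes tested (29.5%, with 39.2% higher). All 4 mesophyll genes of carbon fixation (RBCS1A, RBCS2B, RBCS3B and RCA) fell, from a sum of 25441 and 24103 TPM at time 0 to 2621 and 2854 TPM at 2 days. Of epidermal genes, 2 of 4 fell, 1 rose and 1 did not pass, with a sum of 645 and 629 TPM at time 0 and 428 and 378 TPM at 2 days. Guard cell lineage genes were lower in 2 of 3 tested and summed to 41.1 and 41.1 TPM at time 0 and 18.1 and 15.1 TPM at 2 days. Of these, TMM had a 2-day mean of 0.94 TPM, below the limit of 1 TPM. It was thus tested only through its time 0 level and could hardly be called anything but lower. SPCH and MUTE were too low to test, with MUTE listed at 0 in 2-day replicate 1. Phloem genes fell in 1 of 3, with 179 and 171 TPM at time 0 and 142 and 138 TPM at 2 days, and xylem genes in 2 of 4, with 249.7 and 255 TPM at time 0 and 134 and 136 TPM at 2 days. Within the epidermal list PDF1 had 202 and 194 TPM at time 0 and 2.63 and 1.28 TPM at 2 days, whereas CER5 rose from 63.8 and 66.7 TPM to 116 and 107 TPM. The phloem gene SUC2 did not pass, with 86.3 and 79.8 TPM at time 0 and 90 and 90.7 TPM at 2 days. In the same list SEOR1 was the gene that fell, from 80.5 and 77.9 TPM to 38.4 and 32.7 TPM, while APL did not pass. PDF1, CER5, TMM, SUC2 and SEOR1 were singled out after their values were seen. Mesophyll markers thus moved with the 39 genes, and these markers are photosynthesis genes themselves. Their part in the falls was not tested.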

How the data were processed

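RNA sequencing covered 4 libraries, 2 in each group, assigned by their titles. Every table column was matched to a library by name, and 0 columns were set aside. The authors deposited TPM for each gene, given to 2 decimals. The build is TAIR10 and the tools are RSEM 1.3.2, STAR 2.7.2b and Trim Galore 0.5.0, per the submitters' processing notes. How strand, gene models and low values were handled is not given in the sources used here. Depth per library is unknown, since TPM does not keep it, and no counting error could be given.

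From the deposited TPM, log2(TPM + 1) was fitted across the 19078 of 37686 genes that averaged 1 TPM or more, with limma 3.58.1 (R 4.3.3) and its trend option. P-values were adjusted over all of these genes by Benjamini-Hochberg, a call needed an adjusted p below 0.05, and intervals are limma's at 95%. With 2 residual degrees of freedom and no label of separate plants, these p-values cover the variation between the 4 libraries alone, part or all of which may be technical. The fit was also run on simulated data, where few genes changed and spread and depth were assumed, so that run does not speak for these data. Sums and ratios were compared by exact permutation of libraries.

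Members, related lists and tests were chosen with earlier results of these data known. All members are named. Of each related list, up to 2 called genes with the largest change in each direction are named, and all 3 non-photosynthetic ferredoxin and FNR genes. Further genes of these lists were named after their values were seen. Symbols, introns, coding lengths and 50-base windows shared between transcripts came from the RefSeq annotation of TAIR10.1 (all 39 loci matched), whose coordinates are not printed because the build differs.

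Alternatives were pseudocounts of 0.1 and 5, no filter or one at 5 TPM, quantile normalization, rescaling on a total that omits the organelle genes and the 100 highest, no trend, summed copies, omission of each library in turn, and a replicate block. Python 3.11.15 and matplotlib 3.10.9 were used.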

Additional observations from a re-analysis of the deposited data

How the results depend on the processing

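All 39 genes kept their direction under every alternative in which they were fitted, and 36 to 39 were called lower (30 of 30 with paired copies summed). The calls lost were those of PGRL1B, PGR5 and FD1. Leaving out 1 library, where a group's lone library is assumed to vary like the others, gave 36 to 38 lower members, 4005 to 5735 lower genes and 5893 to 7041 higher genes in all. Of all calls, 49.2% were higher under rescaling, at a median log2 difference of -0.02 over all genes.

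Quantile normalization moved the median of photosystem II to -2.44 and of ATP synthase to -1.25. Rescaling on a total that omits organelle genes and the 100 highest gave -2.60 for photosystem I, -2.68 for photosystem II, -2.85 for cytochrome b6f, -2.22 for plastocyanin, -3.65 for FNR and -1.26 for ATP synthase. A pseudocount of 5 gave -2.69 for cytochrome b6f. Summing copies, which leaves fewer values to a median, gave -2.60 for plastocyanin, -1.72 for ferredoxin, -3.24 for FNR and -1.31 for PGR5/PGRL1. Without 1 library the photosystem I median ran from -2.56 to -2.34.

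In the related lists, no filter left 1 higher antenna gene, 0 higher other thylakoid genes, 7 lower plastid identifiers, 1 higher reference gene and 4 lower guard cell genes. From 5 TPM, 3 plastid identifiers and 1 guard cell gene were lower, among fewer tested. Quantile normalization left 1 higher gene each in the antenna, other thylakoid and reference lists, and rescaling 1 each in the latter pair. Higher reference genes numbered 1 without a trend and 1 with the replicate block. Without 1 library, higher genes numbered 1 to 3 in the antenna, 1 to 2 in the other thylakoid, 0 to 2 in the reference and 0 to 1 in the plastid list, where 6 to 13 were lower. The causes were not tested beyond what the settings themselves remove.

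Deviations of same-numbered libraries had a correlation of -0.07 over all genes tested. The labels do not say whether such libraries share more than a number, and this value cannot settle it. With the replicate block 5283 genes were lower and 7101 higher, and all 39 members stayed called lower. The shifts between copies, the summed levels and the ferredoxin and FNR type ratios (the last an alternative chosen after seeing the data) kept their direction under each alternative run. With unknown depth, counting error cannot be set beside the spread of the libraries.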

Other observations

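Genes around the 39 included relatives that differed from them in size or sign, and the following were singled out after their values were seen. ATPG (AT4G32260, PDE334 in the reference), a further nuclear subunit of the plastid ATP synthase, had 1494 and 1427 TPM at time 0 and 219 and 221 TPM at 2 days, a 6.64-fold fall (log2 difference -2.72, 95% interval -2.86 to -2.59), with an interval below those of ATPC1 (95% interval -1.61 to -1.30) and ATPD (95% interval -0.94 to -0.70). The CURT1 family, which shapes the thylakoid margins, was split. CURT1A (AT4G01150) had 1084 and 1059 TPM at time 0 and 289 and 268 TPM at 2 days. CURT1C (AT1G52220), whose locus lies next to that of PSAH2, had 254 and 277 TPM at time 0 and 106 and 87.5 TPM at 2 days. Both fell with CURT1B, the gene listed as PSAP, by 3.85-fold and 2.74-fold, less than its 5.69-fold, while CURT1D rose.

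Of the antenna genes, LHCB2.3 (AT3G27690) did not pass with all 4 libraries and had 115 and 117 TPM at time 0 and 147 and 48.4 TPM at 2 days, so that its 2-day libraries lay on either side of both time 0 libraries. Its limma adjusted p was 0.455. It passed in opposite directions when either 2-day library was left out (lowest adjusted p over all alternatives 0.00118). The log2 difference was -1.24 without 2-day replicate 1 and 0.34 without 2-day replicate 2, and an opposite-strand gene covers 38.6% of its windows.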
